A study of Mus musculus with 4 samples.

Results

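C1q-positive macrophages of the mouse submandibular gland were examined in 4 single-cell RNA-seq libraries, 2 from glands released from duct obstruction and 2 from glands left alone. The members were chosen by their own transcripts. Barcodes were retained from 300 detected genes upward and up to 10% mitochondrial transcripts, and a retained cell counted as a member when it held at least 3 unique molecular identifiers (UMIs, each standing for 1 captured transcript) of C1qa, C1qb and C1qc together, at least 1 of Csf1r, Adgre1, Cd68 and Fcgr1, none of Cd3e, Cd79a and Ncr1, at most 1 of Pecam1 and Cdh5, and at most 10 of Hbb-bs and Hba-a1. This gave 1650 members of 36685 retained cells. The deligated members were few, with 28 cells of 4521 in replicate 1 and 79 of 8386 in replicate 2. The homeostatic replicates held 772 of 11713 and 771 of 12065.

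All cells came from female C57BL6/J mice and from a suspension from which EpCAM-bearing epithelium, Ter119-bearing red blood cells and dead cells had been removed with magnetic beads. In the deligated group, aged 14 weeks, a metal clip closed the main ducts for 14 days and was then off for 5 days before harvest. The homeostatic group was 12 weeks old and had no surgery, so age and surgery cannot be told apart, and neither can the software, because the matrix headers name Cell Ranger 6.0.1 in the deligated and 7.0.0 in the homeostatic libraries. The labels do not say how many animals gave each library, so the p-values measure the spread between libraries, which may be technical. The protocol names sublingual glands beside the submandibular ones.

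C1q is the recognition molecule of the classical complement pathway. Its A, B and C chains are made mainly by tissue macrophages rather than by the liver, and C1q bound to dying cells helps phagocytes to take them up. Resident macrophages of many glands fall into CX3CR1-bearing cells rich in MHC class II and perivascular cells marked by LYVE1, FOLR2, CD163 and the mannose receptor MRC1, and they depend on the receptor CSF1R.

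Sequences just before the gene starts are shown for 2 of the 3 C1q genes that define the cells and for 4 genes that were higher in the deligated members. Windows of 250 bases were found for 6 of 7 genes sought in RefSeq (GRCm38.p6), not for C1qa. The C1q genes lie side by side, with C1qb at chr4:136886201-136886450, minus strand and C1qc at chr4:136892915-136893164, minus strand. The others are Klf2 at chr8:72318812-72319061, plus strand, Dusp1 at chr17:26508473-26508722, minus strand, Zfp36 at chr7:28379229-28379478, minus strand, and Socs3 at chr11:117969367-117969616, minus strand. Each runs 5′ to 3′ on the strand of its gene, and capitals mark matches on either strand to a PU.1 core (GAGGAA), a cAMP response element (TGACGTCA), an AP-1 site (TGANTCA), a STAT site (TTCNNNGAA) or a CArG box.
C1qb: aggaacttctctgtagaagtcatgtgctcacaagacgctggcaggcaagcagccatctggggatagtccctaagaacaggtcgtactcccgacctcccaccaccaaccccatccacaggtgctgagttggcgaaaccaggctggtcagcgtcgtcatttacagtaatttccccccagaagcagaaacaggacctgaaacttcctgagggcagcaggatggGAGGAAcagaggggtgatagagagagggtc
C1qc: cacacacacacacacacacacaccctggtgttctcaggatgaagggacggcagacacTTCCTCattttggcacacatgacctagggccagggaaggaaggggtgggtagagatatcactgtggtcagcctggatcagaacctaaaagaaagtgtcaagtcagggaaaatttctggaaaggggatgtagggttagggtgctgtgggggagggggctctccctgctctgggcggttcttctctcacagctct
Klf2: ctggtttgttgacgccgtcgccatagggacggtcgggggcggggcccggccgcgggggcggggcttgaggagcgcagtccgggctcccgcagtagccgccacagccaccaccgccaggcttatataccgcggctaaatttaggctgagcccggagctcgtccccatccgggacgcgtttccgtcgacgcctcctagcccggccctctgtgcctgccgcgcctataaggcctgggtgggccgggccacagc
Dusp1: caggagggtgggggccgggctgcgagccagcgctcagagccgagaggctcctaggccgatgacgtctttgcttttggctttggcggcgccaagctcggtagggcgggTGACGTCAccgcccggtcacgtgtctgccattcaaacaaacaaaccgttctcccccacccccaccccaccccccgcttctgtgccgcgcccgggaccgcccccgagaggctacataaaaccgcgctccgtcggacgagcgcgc
Zfp36: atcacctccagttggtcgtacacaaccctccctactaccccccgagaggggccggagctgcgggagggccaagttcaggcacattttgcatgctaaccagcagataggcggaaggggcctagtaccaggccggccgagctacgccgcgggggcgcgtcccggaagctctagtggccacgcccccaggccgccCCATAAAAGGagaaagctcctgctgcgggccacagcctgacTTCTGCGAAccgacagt
Socs3: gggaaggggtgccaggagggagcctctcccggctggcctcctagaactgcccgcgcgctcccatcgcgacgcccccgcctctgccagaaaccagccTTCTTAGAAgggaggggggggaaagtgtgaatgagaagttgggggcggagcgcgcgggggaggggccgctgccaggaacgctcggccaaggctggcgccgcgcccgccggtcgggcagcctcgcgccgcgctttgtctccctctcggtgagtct
C1qb and C1qc each held a PU.1 core, which 23.3% of all 32851 windows of this length also held. Dusp1 held the cAMP response element, found in 1.55% of windows. Zfp36 held a CArG box, found in 1.47%, and a STAT site, found in 7.02%. Socs3 held a STAT site. No match to the AP-1 site, found in 6.75% of windows, lay in any of the 6. A match describes letters only and is not evidence of binding.

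The members made up a smaller share of the deligated libraries. They were 0.619% of retained cells in deligated replicate 1 (exact Clopper-Pearson 95% interval 0.412 to 0.894%) and 0.942% in replicate 2 (0.747 to 1.17%). In the homeostatic replicates they were 6.59% and 6.39%. The groups did not overlap, with means of 0.781% ± 0.228 (SD, n = 2) and 6.49% ± 0.142 (SD, n = 2) and an 8.31-fold ratio. An exact two-sided permutation test gave p = 0.33, the smallest that 2 against 2 allows. Intervals cover counting error only.

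Among retained cells with a UMI of Ptprc, the gene of the pan-leukocyte antigen CD45, the share was 1.00% of 1791 and 1.22% of 3785 cells in the deligated and 17.6% of 2413 and 17.1% of 2386 in the homeostatic libraries. The ratio was thus larger with leukocytes as the denominator, at 15.6-fold. Cells with at least 3 C1q UMIs, members included, numbered 48 and 171 in the deligated and 1523 and 1496 in the homeostatic libraries. Of these, 6, 42, 349 and 346 exceeded the haemoglobin limit, and they were deep cells with median totals of 8666 to 9497 UMIs. Haemoglobin was the only reason to fail the rule in 6, 27, 256 and 276 cells. The bead depletion and the other cells in the denominator bear on any share, and their part was not tested.

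**Figure D1:**
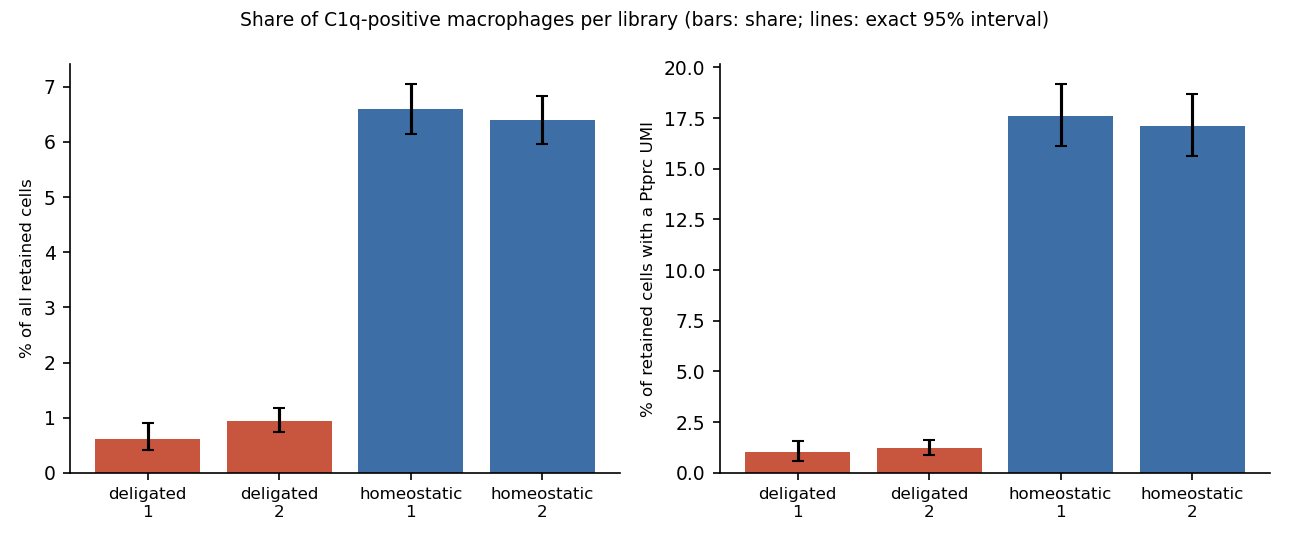
Share of C1q-positive macrophages (y axis, percent, from 0) in each of the 4 libraries (x axis), among all retained cells on the left and among retained cells with a Ptprc UMI on the right. Bars are shares and lines exact 95% intervals; both deligated bars stay under 1.3% in both panels, while the homeostatic bars stand at 6.39 to 6.59% and at 17.1 to 17.6%.

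The label was checked against markers that the rule did not use. All 10 further macrophage markers outside the rule (among them Mertk, Lyz2, Tyrobp and Ctss) were detected in the members of all 4 libraries, with summed levels of 18570 and 15250 CPM (UMI counts scaled to the total of the member cells) in the deligated and 12200 and 13680 CPM in the homeostatic members, against 1852 to 2884 CPM in all other retained cells. Of 8 neutrophil markers, S100a8, S100a9 and Retnlg had no UMI in any member, 1 was detected in each deligated library and 4 and 5 in the homeostatic libraries. Their summed level was 12.95 and 17.5 CPM in deligated and 23.6 and 32.1 CPM in homeostatic members, above the 3.52 to 8.51 CPM of other retained cells in all libraries but deligated replicate 1 (41.4 CPM). Of 8 mast cell or basophil markers 7 had no UMI in any member. Dendritic cell markers summed to 246 and 282 CPM in deligated and 303 and 275 CPM in homeostatic members, against 198 to 247 CPM in other retained cells, and 3, 6, 9 and 10 of 10 were detected in deligated replicates 1 and 2 and homeostatic replicates 1 and 2. Monocyte markers summed to 227 and 247 CPM in deligated and 143 and 141 CPM in homeostatic members, with 6, 6, 8 and 8 of 9 detected and Chil3 in none. The median member held 64.5, 58, 47 and 44 C1q UMIs in deligated replicates 1 and 2 and homeostatic replicates 1 and 2, far above the minimum of 3. Only 17 members held exactly 3, and 12 cells with 2 met every other limit. C1q ran at 150.1 to 188.7 UMIs per 10000 in the median member, a value the rule itself used, against 0.0426 to 2.19 per 10000 in endothelial cells chosen without regard to C1q.

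Cx3cr1, the receptor for fractalkine, was common in these cells, and most perivascular markers were rare. After thinning each member to 1000 UMIs, a UMI of Cx3cr1 was found in 53.8% of 26 and 58.8% of 68 deligated cells and in 47.8% of 682 and 47.7% of 669 homeostatic cells. At 2000 UMIs the shares were 71.4% and 70.2% against 73.3% and 73.3%, so the order of the groups turned with the depth. Without thinning they were 64.3% and 69.6% against 61.8% and 61.7%. Endothelial cells held Cx3cr1 in at most 0.497% at 1000 UMIs and 1.08% at 2000 UMIs. Lyve1 and Timd4 had no UMI in any member thinned to 1000 UMIs, and without thinning Lyve1 was found in 1 of 1650 members and Timd4 in 1 of 772 and 3 of 771 homeostatic members. With 682 cells so thinned a count of 0 allows a share of cells with a UMI at this depth of up to 0.44% in homeostatic replicate 1, but with 26 cells up to 11.5% in deligated replicate 1, and sets no limit on cells that express the gene. Folr2 and Cd163 were found in at most 0.299% of members of any library at 1000 UMIs, and at 2000 UMIs in at most 0.412% and 0.199%, and without thinning in at most 0.389% and 1.27%. Mrc1 was found at 1000 UMIs in 7.69% and 4.41% of deligated and 3.67% and 2.39% of homeostatic members, against at most 0.166% of endothelial cells, and without thinning in 10.7% and 11.4% of deligated and 9.85% and 8.30% of homeostatic members. At 2000 UMIs it was found in 4.76% and 8.77% against 6.97% and 4.73% of members, where the groups overlapped. The deligated shares of Mrc1 at 1000 UMIs rest on 2 and 3 cells.

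Class II presentation genes marked almost every member in both groups. H2-Aa, an MHC class II chain, was found in 96.2% and 92.7% of deligated and 97.8% and 98.6% of homeostatic members at 1000 UMIs, and Cd74, the invariant chain, in 96.2% to 99.7%. Endothelial cells at this depth held H2-Aa in 1.33 to 4.64% and Cd74 in 1.61 to 5.95%. Ccr2, the receptor that draws monocytes out of blood, was found in 0 of 26 and 1.47% of deligated and in 2.35% and 2.24% of homeostatic members, against 0.204 to 0.385% of endothelial cells. Without thinning it was found in 10.7% and 6.33% against 6.74% and 6.36%, and at 2000 UMIs in 9.52% and 1.75% against 5.18% and 5.35%, so no order of the groups can be read. Trem2, a lipid receptor of macrophages, was found in at most 0.148% of endothelial cells at 1000 UMIs. Among members it was found in 15.4% and 44.1% of deligated and 28.6% and 29.7% of homeostatic cells at this depth, where the groups overlapped. At 2000 UMIs it was found in 52.4% and 64.9% against 49.6% and 50.6%, and without thinning in 64.3% and 68.4% against 57.4% and 54.4%, where they did not. Mki67, a gene of dividing cells, reached at most 2.94% in any library at 1000 UMIs and 6.48% without thinning. Top2a, another such gene, was found in 7.69% and 1.47% of deligated and 3.37% and 2.84% of homeostatic members at 1000 UMIs. Without thinning it was found in 10.7% and 2.53% against 6.87% and 6.10%, so the groups overlapped in both settings.

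**Figure D2:**
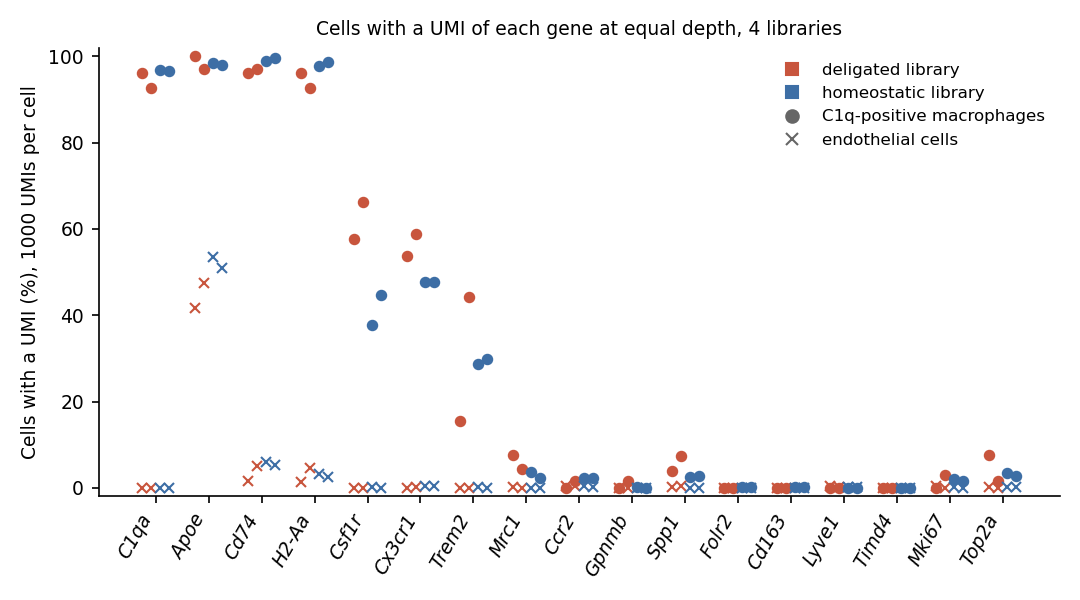
Percent of cells with a UMI of each gene (y axis) after thinning to 1000 UMIs, for 17 genes (x axis). Circles are C1q-positive macrophages and crosses endothelial cells of the same library, with deligated libraries in red and homeostatic in blue; H2-Aa and Cd74 stay above 90% in all macrophage samples, while Lyve1 and Timd4 stay at 0.

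Expression was compared on UMI counts summed over the members of each library: 154417 and 400364 UMIs in the deligated and 3603929 and 3022824 in the homeostatic libraries. Of 9660 genes tested outside the rule, 857 (8.87%) passed an adjusted p of 0.05 by edgeR's quasi-likelihood test, 192 (1.99%) higher and 665 (6.88%) lower in the deligated members. The median log2 fold change over all genes was -0.04. The lower calls went with gene length. Of 1156 tested genes with over 100 kb of total intron, 407 were lower and 2 higher, with a median log2 fold change of -1.23, whereas of 989 genes with at most 2 kb, 11 were lower and 62 higher, with a median of 0.25. In the deligated libraries 3.70% and 4.32% of member UMIs belonged to this longest class, and in the homeostatic libraries 8.95% and 8.99%. With the trend on intron length removed, 334 genes were called (3.46%), 239 higher (2.47%) and 95 lower (0.983%), of which 191 were among the 857, and a fit limited to the 3102 genes with at most 10 kb of intron called 23 (0.741%), 7 higher (0.226%) and 16 lower (0.516%). Leaving out 1 library gave 1539 calls without deligated replicate 1, 671 without deligated replicate 2, and 499 and 526 without homeostatic replicates 1 and 2. DESeq2 called 549 genes (5.68%), 146 higher (1.51%) and 403 lower (4.17%). The part of the software versions in this trend cannot be told apart from that of the treatment. The total intron length is given beside most lower genes named with their values.

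**Figure D3:**
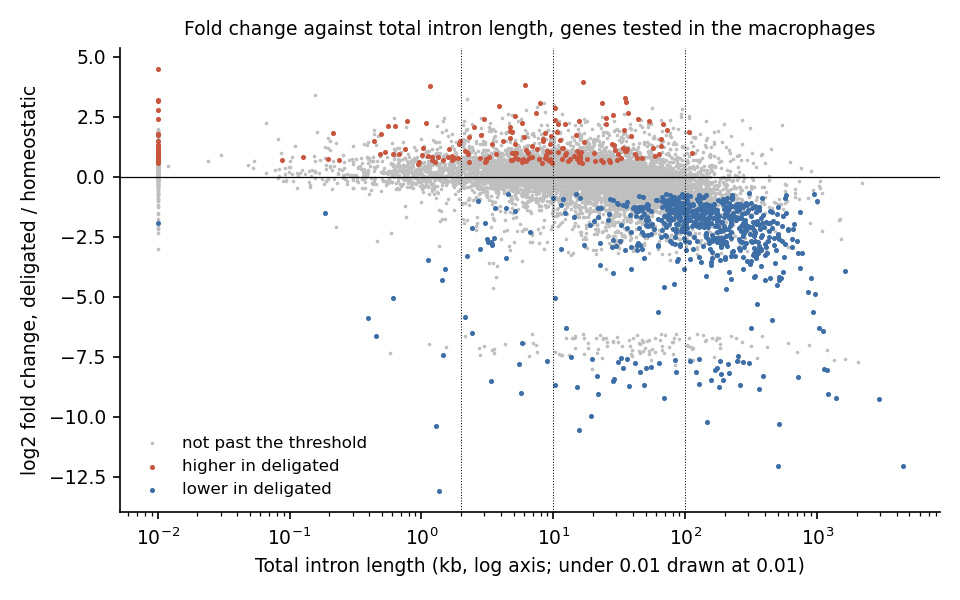
Log2 fold change of deligated over homeostatic members (y axis) against total intron length in kb (x axis, log scale) for the genes tested, with genes past the threshold in red (higher) or blue (lower). Dotted lines stand at 2, 10 and 100 kb, beyond the last of which 407 of 1156 genes were lower and 2 higher; the separate band near -7 holds genes with no UMI in deligated members, whose fitted fold is no measure of size.

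Immediate early genes, which cells switch on within minutes of a stimulus and which tissue dissociation can induce, held the largest share of higher calls among the 19 lists, 9 of 26 tested with none lower, against 1.99% of all genes. The 9 were Fos, Fosb, Junb, Egr1, Ier2, Ier5, Zfp36, Klf2 and Klf4. The median over the 26 was 0.57 on the log2 scale, and 21 of 26 were above 0. Klf2, a transcription factor that restrains inflammatory activation of myeloid cells, stood at 259 and 380 CPM in the deligated and 54.9 and 74.1 CPM in the homeostatic members. The 2 groups did not overlap (log2 fold change 2.32, SE 0.20, adjusted p = 0.000331). Zfp36, which encodes tristetraprolin, a protein that destabilises cytokine mRNAs, stood at 311 and 480 CPM against 135 and 141 CPM (log2 fold change 1.51, SE 0.19, adjusted p = 0.00231). Klf4 was at 123 and 135 CPM against 40.0 and 38.0 CPM, although 13 of its 19 UMIs in deligated replicate 1 lay in 1 cell.

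Dusp1, a phosphatase that switches off MAP kinases and is induced by glucocorticoids, stood at 330 and 432 CPM against 71.9 and 80.1 CPM, with no overlap (log2 fold change 2.31, SE 0.15, adjusted p = 0.000107). At 1000 UMIs per cell it was found in 15.4% and 17.6% of deligated and in 5.28% and 5.38% of homeostatic members. Socs3, an inhibitor of STAT3 signalling, stood at 90.7 and 107 CPM against 20.0 and 21.2 CPM (log2 fold change 2.24, SE 0.24, adjusted p = 0.00105). Tsc22d3, which encodes the glucocorticoid-induced leucine zipper, was at 97.1 and 72.4 CPM against 33.0 and 33.7 CPM (adjusted p = 0.0239). Of 12 tested glucocorticoid-responsive genes, 3 were higher (Tsc22d3, Dusp1, Sgk1) and none lower, beside 1.99% of all genes higher, with a median of 0.60. Without members that held markers of other cell classes, 0 of 11 passed, with a median of -0.13, and with Ighm not counted among those markers 2 of 12 were higher. Leaving out a library in turn gave 1 to 6 higher calls in this list, 6 without deligated replicate 1 and 1 without either homeostatic library, and 6 to 17 in the immediate early list, 17 without deligated replicate 1. Klf2, Zfp36, Dusp1 and Socs3 passed with each library left out.

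The immediate early list was also summed by depth of the members. In members with at least 5000 UMIs (13, 29, 235 and 212 cells), the list summed to 9411 and 12203 CPM in the deligated and 6363 and 6852 CPM in the homeostatic libraries, and in members under 2000 UMIs (7, 22, 270 and 285 cells) to 1961 and 4392 against 3491 and 3533 CPM, where the groups overlapped. In members from 2000 to under 5000 UMIs (8, 28, 267 and 274 cells) the sums were 5285 and 8070 against 6227 and 5969 CPM, again overlapping, while Klf2 stood at 432 and 168 against 76.5 and 76.4 CPM and Dusp1 at 240 and 200 against 70.0 and 66.0 CPM, on 5 to 19 UMIs of each gene in each deligated library. Members with 3 or more UMIs of fibroblast, mural, epithelial, lymphoid, Schwann or endothelial markers made up 46.4% and 60.8% of deligated and 25.5% and 26.7% of homeostatic members. Without them, 15 and 31 deligated members remained, 328 of 7331 genes were called (4.47%), 21 higher (0.286%) and 307 lower (4.19%), and the median over all genes was -0.47. Of the list, 0 of 24 genes passed, with a median of -0.18. The members left out were also the deeper ones, with median totals of 9002, 5425, 6271 and 5462 UMIs against 2088, 1557, 2459 and 2304 in those kept, so markers and depth cannot be told apart here. Dusp1 then had a log2 fold change of 0.55 (adjusted p = 0.607) and Klf2 of 1.04 (adjusted p = 0.253). In the members kept, Socs3 stood at 56.7 and 0 CPM in the deligated libraries, on 2 and 0 UMIs, against 15.4 and 21.9 CPM in the homeostatic ones. The most frequent of these markers was Ighm, found in 60.7%, 54.4%, 40.8% and 39.9% of members while Igkc was found in at most 0.13%. With Ighm not counted, 22 and 42 deligated members remained and 11 of 25 genes passed, with a median of 0.63. Klf2 then stood at 82.6 CPM, on 9 UMIs, and 556 CPM in deligated against 55.3 and 79.9 CPM in homeostatic members. Its level in deligated replicate 1 was thus near that of homeostatic replicate 2. Dusp1 was at 321 and 331 against 83.2 and 79.5 CPM, and Socs3 at 73.4 and 97.7 against 20.3 and 23.2 CPM. In deligated replicate 2 fibroblast markers were also high, at 3102 CPM against 38.9 CPM in replicate 1 and 578 and 292 CPM in the homeostatic libraries. The part of such RNA in the calls was not tested beyond these values.

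Inflammatory cytokines and chemokines followed, with 6 of 22 tested genes higher (Il1b, Cxcl1, Cxcl2, Ccl3, Ccl6, Nfkbia) and none lower, beside 1.99% higher and 6.88% lower of all genes, and a median of 0.40. Il1b, a cytokine released by activated macrophages, stood at 434 and 155 CPM against 61.6 and 67.2 CPM (log2 fold change 1.90, SE 0.38, adjusted p = 0.0186) and was found in 11 of 28 and 13 of 79 deligated members. Cxcl2, a neutrophil attractant, stood at 298 and 235 CPM against 63.3 and 79.7 CPM (adjusted p = 0.00104), but 45 of its 46 UMIs in deligated replicate 1 came from 1 cell. Cxcl1 was carried by 2 and 3 deligated cells. Without members that held other markers, Cxcl2 turned to a log2 fold change of -8.91 (adjusted p = 0.0226) and 5 of 20 genes of the list were lower and 1 higher. With Ighm not counted, 7 of 21 were higher and 3 lower, with a median of -0.36. Without deligated replicate 2 the list had 5 higher and 4 lower calls and a median of -0.23. Of 24 interferon-stimulated genes tested, none passed in either direction, with a median of -0.25. DESeq2 called 1 of them lower, and 3 were lower without either deligated library, with 1 higher without replicate 1.

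All 19 tested lysosomal genes had a positive log2 fold change, with a median of 0.47, beside 4590 of all 9660 genes. Of the 19, 3 passed, beside 1.99% of all genes higher: Ctsl and Tpp1, both lysosomal proteases, and Grn, the progranulin gene. Without members that held markers of other cell classes, 1 of 19 was higher. Leaving out a library gave 6 and 7 higher calls without deligated replicates 1 and 2 and 1 without either homeostatic library. Ctsl did not pass without deligated replicate 2 (adjusted p = 0.167) or homeostatic replicate 2 (adjusted p = 0.22), nor Tpp1 without deligated replicate 1 (adjusted p = 0.0741) or homeostatic replicate 1 (adjusted p = 0.193). Grn stood at 486 and 422 CPM against 233 and 259 CPM (log2 fold change 0.82, SE 0.17, adjusted p = 0.0235). Apoe, the apolipoprotein that carries lipid out of macrophages, was among the most abundant transcripts, at 35880 and 34000 CPM against 22530 and 23320 CPM (log2 fold change 0.56, SE 0.11, adjusted p = 0.0198). It was the only higher call among 22 lipid-handling genes, beside 1.99% of all genes higher. Atp6v0d2 (43.0 kb of intron), on 2 deligated UMIs, was the only lower one, beside 6.88% of all genes lower. The list had a median of 0.36, which was -0.22 without deligated replicate 2, 0.01 without members that held other markers and -0.05 with Ighm not counted among them. Without deligated replicate 1 it had 8 higher calls of 23, and Atp6v0d2 did not pass without deligated replicate 2 (adjusted p = 0.0695) or homeostatic replicate 1 (adjusted p = 0.235). Lyz2, the lysozyme gene of myeloid cells, stood at 4002 and 3292 CPM against 1613 and 2033 CPM (log2 fold change 0.95, SE 0.18, adjusted p = 0.0136). The counting may have split reads with its near-identical neighbour Lyz1. Of 14 tested monocyte and monocyte-derived macrophage genes, 2 were higher (Ace, Lyz2) and none lower, beside 1.99% and 6.88% of all genes. Their median was 1.45, and without members that held other markers 1 of 9 was higher. Lyz2 passed with each library left out in turn. Apoe did not pass without homeostatic replicate 2 (adjusted p = 0.114), and Grn did not pass without either homeostatic library (adjusted p = 0.237 and 0.179 without replicates 1 and 2). Hmox1, the haem-degrading enzyme, was at 64.8 and 79.9 CPM against 35.2 and 36.4 CPM (adjusted p = 0.0358), a call kept only without deligated replicate 1 when libraries were left out in turn, and the iron store genes Fth1 and Ftl1 did not pass.

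Receptor genes from more than 1 list were called, some higher and some lower. Fcgr2b, the inhibitory Fc receptor, stood at 123 and 147 CPM against 71.9 and 68.8 CPM (adjusted p = 0.0147), 1 of 4 higher calls among 21 Fc and pattern-recognition genes with none lower, beside 1.99% of all genes higher (Cd14, Clec4n and Clec4a2 were the others). Fcgr2b passed only without deligated replicate 1 when libraries were left out in turn, and without homeostatic replicate 1 the list had 0 higher calls. It also had 0 of 19 without members that held markers of other cell classes, and 4 of 20 with Ighm not counted among those markers. Fcrls, an Fc receptor-like gene of resident macrophages, stood at 162 and 165 CPM against 35.0 and 50.6 CPM (adjusted p = 0.00211), with 19 of its 25 UMIs in deligated replicate 1 in 1 cell. Tgfbr1, a chain of the TGF-beta receptor with 55.2 kb of intron, was lower at 538 and 497 CPM against 1302 and 1324 CPM (log2 fold change -1.40, SE 0.16, adjusted p = 0.00167). It stayed lower with the intron trend removed (-0.83, adjusted p = 0.0344). Tgfbr2, the partner chain with 82.9 kb, was at 142 and 127 CPM against 280 and 287 CPM (adjusted p = 0.00595), a call lost with the trend removed (adjusted p = 0.366). Of 18 tested genes of CX3CR1-type macrophages, 3 were higher (Sparc, Fcrls, Selplg) and 3 lower (P2ry12, with 44.0 kb of intron, Tgfbr1, Tgfbr2), beside 1.99% and 6.88% of all genes. With the intron trend removed 2 were higher and 1 lower. Selplg passed only without deligated replicate 1 when libraries were left out in turn, and P2ry12 did not pass without deligated replicate 2 or homeostatic replicate 1. Sparc came from 1 library, at 360 CPM in deligated replicate 2 and 25.9 CPM in replicate 1 against 62.4 and 37.7 CPM.

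Of 17 efferocytosis genes 1 was higher (Lrp1) and 3 lower (Itgav with 71.8 kb of intron, Elmo1, and Dock1 with 494 kb), with a median of 0.01, where 1.99% of all genes were higher and 6.88% lower. With the intron trend removed 1 was higher and 0 lower, with a median of 0.54. The list had 4 higher and 4 lower calls without deligated replicate 1, and 0 higher and 4 lower with a median of -0.56 without deligated replicate 2. Lrp1, a scavenger receptor, stood at 90.7 and 222 CPM against 68.3 and 72.8 CPM and did not pass without deligated replicate 2 (adjusted p = 0.703). Zeb2, a transcription factor of macrophage identity with 114 kb of intron, was at 337 and 365 CPM against 704 and 780 CPM (log2 fold change -1.13, adjusted p = 0.00456), and Elmo1, which couples engulfment receptors to RAC1 and has 505 kb, at 110 and 110 CPM against 592 and 574 CPM (log2 fold change -2.47, adjusted p = 0.000229). With the trend removed both were near 0, at -0.04 and -0.03. Runx1 and Dock1 turned to 0.51 and 0.88. Among 25 receptors and identity factors 3 were higher (Il10rb, Maf, Cebpb) and 4 lower (Il10ra with 11.8 kb of intron, Zeb2, Runx1 with 213 kb and Mitf with 208 kb), beside 1.99% and 6.88% of all genes, with a median of 0.08. With the intron trend removed 1 was higher and 1 lower. The higher count was 8 and 1 without deligated replicates 1 and 2 and 0 without either homeostatic library, and the lower count 2 to 4. Maf and Il10rb passed only without deligated replicate 1 when libraries were left out in turn, and Runx1 did not pass without homeostatic replicate 1 (adjusted p = 0.0507). Cebpb, an intronless factor of inflammatory myeloid genes, stood at 188 and 170 CPM against 82.4 and 86.0 CPM (adjusted p = 0.00681). It did not pass without homeostatic replicate 1 (adjusted p = 0.0742) or replicate 2 (adjusted p = 0.0862).

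None of 11 complement genes outside the rule passed, where 1.99% of all genes were higher and 6.88% lower. Of the 11, 8 were above 0, beside 4590 of all 9660 genes. Without deligated replicate 1 the list had 6 higher and 1 lower call of 13, and without homeostatic replicate 1 it had 2 higher of 9. Its median of 0.70 turned to -1.59 without deligated replicate 2. C3ar1, the C3a receptor, was at 227 and 262 CPM against 157 and 167 CPM (adjusted p = 0.0532). None of 12 class II presentation genes passed, with a median of 0.03, and none of 22 cell cycle genes. Class II genes had 2 lower calls of 14 without deligated replicate 1 and 2 higher and 1 lower without replicate 2, and cell cycle genes had 2 lower of 24 without deligated replicate 2. With few deligated cells, a missing call does not show equal levels. The C1q chains, used to choose the cells, stood at 6457 and 5745 CPM for C1qa in deligated and 5220 and 5695 CPM in homeostatic members.

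**Figure D4:**
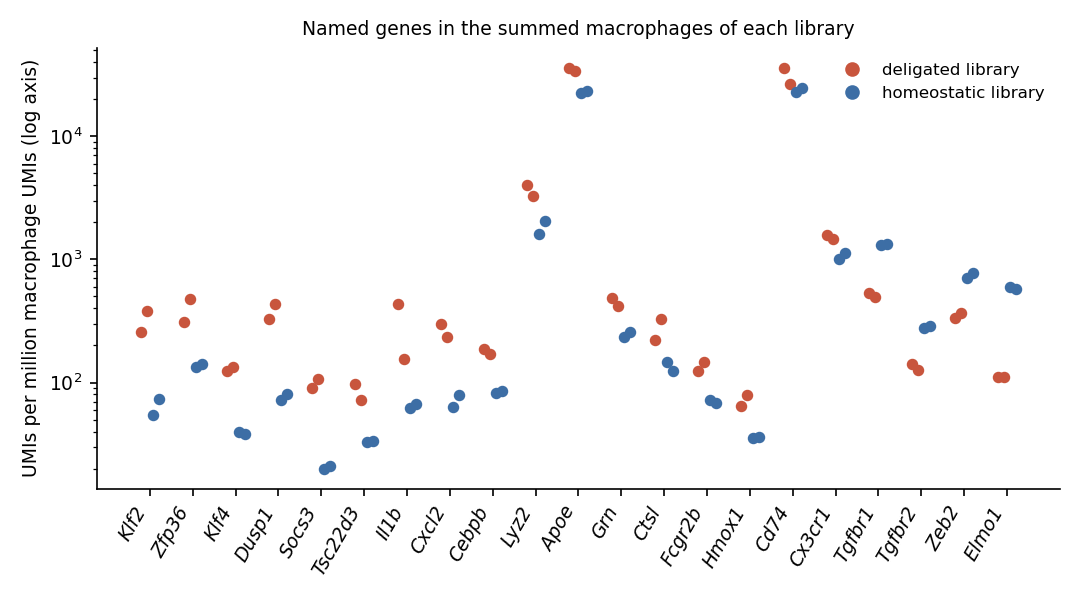
Level of 21 named genes (x axis) in CPM (y axis, log scale), each point 1 library, deligated in red and homeostatic in blue. The deligated points lie above the homeostatic ones for Klf2, Dusp1 and Socs3 and below them for Tgfbr1, Zeb2 and Elmo1.

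**Figure D5:**
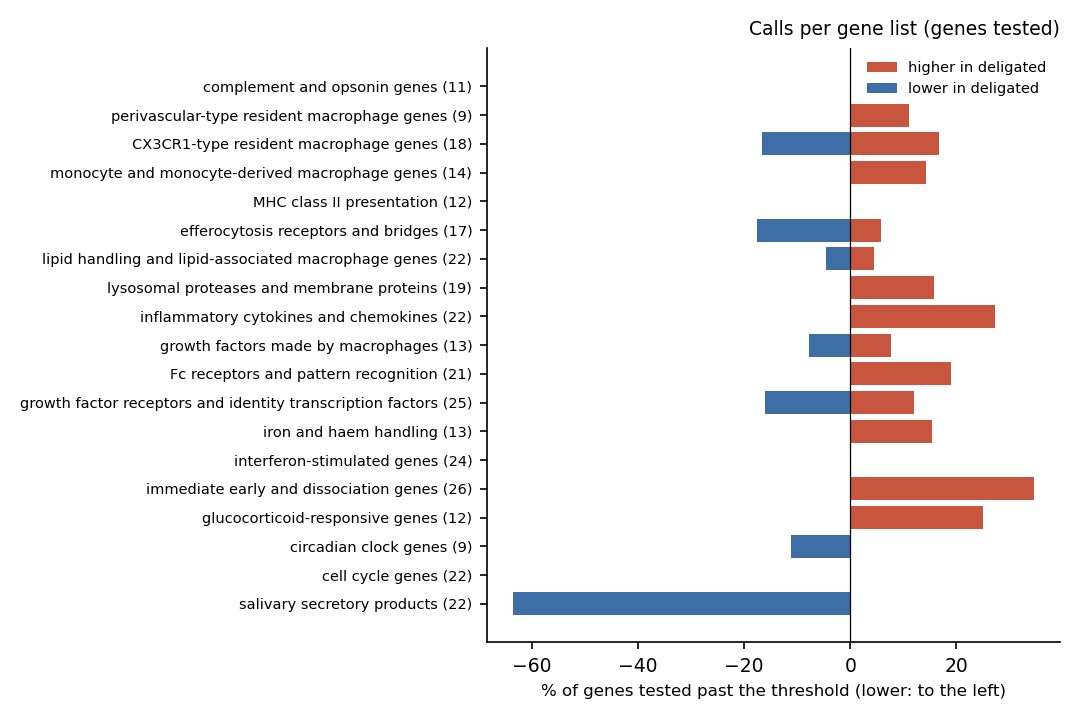
Percent of the tested genes of each of 19 lists past the threshold (x axis, higher to the right, lower to the left), with the number tested in brackets. Immediate early genes have 9 of 26 higher, salivary secretory products 14 of 22 lower, and complement, class II presentation, interferon-stimulated and cell cycle lists have no call.

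Transcripts of secretory epithelium within the members were much lower after deligation. Of 22 tested salivary secretory products 14 were lower and none higher, against 6.88% of all genes. Klk1, a kallikrein of the ducts, stood at 233 and 385 CPM against 1602 and 2474 CPM (log2 fold change -2.73, SE 0.27, adjusted p = 0.000705), and in endothelial cells of the same libraries at 21.04 and 37.3 against 1187 and 1077 CPM. Dcpp1, a secreted demilune and parotid protein, had no UMI in the deligated members and was at least 115-fold lower, taking 3 counts over the group as the floor. These gene families have near-identical copies, among which the counting may split reads. A single homeostatic replicate 1 member held 280240 UMIs, 7.78% of that library's member UMIs, of which 163146 were of the mucin-like gene Mucl2. Without that cell 885 genes were called in place of 857.

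Whether the deligated members differed from other cells in their change was tested with an interaction, using endothelial cells and lymphocytes of the same libraries. Against endothelial cells 86 of 14110 genes passed (0.609%), 39 with a more positive change in members (0.276%) and 47 with a more negative one. Without deligated replicate 2 the count was 16. Klf2 changed more in members (difference 1.74 on the log2 scale, SE 0.24, adjusted p = 0.00291), where endothelial cells went from 1035 and 959 CPM in homeostatic to 1396 and 1362 CPM in deligated libraries. Dusp1 also differed (0.94, SE 0.19, adjusted p = 0.0398), from 188 and 184 to 309 and 569 CPM in endothelial cells, whereas Zfp36 did not pass (0.05, SE 0.18). Tgfbr2 went opposite ways, higher in deligated endothelial cells at 329 and 270 against 195 and 191 CPM, and lower in members (difference -1.83, SE 0.19, adjusted p = 0.000287).

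Against lymphocytes 135 of 13060 genes passed (1.03%), 25 more positive (0.191%) and 110 more negative (0.842%), and neither Klf2 (0.34, SE 0.29, adjusted p = 0.783) nor Dusp1 (-0.16, SE 0.17, adjusted p = 0.829) was among them. In lymphocytes Dusp1 stood at 190 and 208 CPM in deligated and 39.9 and 40.5 CPM in homeostatic libraries.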

How the data were processed

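The submitters' processing notes name Cell Ranger 6.0.1, Seurat and the mm10 build; per the file headers the homeostatic matrices were written by Cell Ranger 7.0.0. The authors deposited UMI counts per gene and barcode, 1 matrix per library; whether intronic reads were counted is not given in the sources used here. Members, endothelial cells (Pecam1 and Cdh5 at least 3, no C1q) and lymphocytes were chosen on raw counts and summed per library. Members and gene lists were chosen with earlier results of these data known, so no list is independent evidence. Genes past edgeR's expression filter were tested with edgeR 4.0.16 (TMM, quasi-likelihood, Benjamini-Hochberg over all genes tested, design by group), and DESeq2 1.42.0 was an alternative. Standard errors are on the log2 scale. The method was tested on simulated data. Named genes were up to 3 calls per list and direction by fold change and 2 abundant genes not called, 10 further genes in each direction, 5 in each direction of the endothelial interaction, and genes with the highest ratio to other cells; the immediate early and other calls listed by name alone, and Ighm, Igkc and the fibroblast markers, were named after their values were seen. Intron lengths came from GENCODE annotation of GRCm38, matched for 31011 of 31053 features. No doublet caller was run; members with other cell markers were left out as an alternative. Over all pairs of libraries 167 barcodes were shared, and none of them was a member in both libraries of its pair. Libraries held 35662241 to 53898793 UMIs. Replicate numbers of the titles were not stated to pair libraries. Results for some genes are not reported here.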

Additional observations from a re-analysis of the deposited data

Results flagged for a closer look

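The deligation effect differed between members and another cell class of the same libraries, by the interaction test, for the genes given here against endothelial cells. The differences are on the log2 scale, members minus the other class. More positive changes in members came with genes of myeloid cells: Cx3cr1 3.12, Lyz2 3.54, Ctss 2.45, Spi1 3.68, Ms4a7 2.19 and Apoe 0.70. Endothelial levels of Cx3cr1, Lyz2, Ctss, Spi1 and Ms4a7 were under 15 CPM in all libraries and higher in the homeostatic ones.

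More positive changes were also seen for Klf2 at 1.74, Dusp1 at 0.94, Mt1 at 2.35, Vcam1 at 2.44, Tm4sf1 at 1.91, Ifitm2 at 1.63 and Ace at 3.44. Of these, Vcam1, Tm4sf1 and Ace rested on few deligated cells, with 7 of 8, 10 of 11 and 6 of 6 UMIs of deligated replicate 1 in 1 cell. Camk1d at 6.78, Klk1 at 2.44 and Runx1 at 1.81 were lower in deligated members but fell further in endothelial cells.

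More negative changes in members were seen for Tgfbr2 at -1.83, Zeb2 at -1.15, Itga9 at -2.58, Zfhx3 at -1.53, Phactr2 at -2.38 and Dst at -1.51. The last 4 have 287, 998, 255 and 359 kb of intron. Fgf13, with no UMI in deligated members, had a fitted difference of -11.67 that is no measure of size.

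Of these genes, 5 also differed from lymphocytes: Mt1 at 1.16, Fgf13 at -10.29, Camk1d at 1.69, Itga9 at -3.98 and Dst at -3.13. Each kept the direction it had against endothelial cells.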

How the results depend on the processing

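The count of genes called in members, 857, fell to 549 with DESeq2, 465 with a replicate block, 451 with crossed replicate numbers as a block, 157 on sums of cells thinned to 1000 UMIs, 328 without members that held markers of other classes, 552 in members with at least 5000 UMIs, 334 with the intron-length trend removed and 23 among genes with at most 10 kb of intron. It rose to 1612 with no filter on low counts and to 1320 with no haemoglobin limit. Leaving out a library gave 499 to 1539 calls. The share of higher calls moved from 22.4% to 71.6% with the trend removed. The crossed block, the depth limit, the haemoglobin limit, the largest cell and the markers without Ighm were chosen after seeing the data. Deviations of same-numbered libraries correlated at -0.15, a single value that cannot show whether such libraries were processed together.

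Against endothelial cells the count of 86 fell to 6 among genes with at most 10 kb of intron, and leaving out a library gave 16 to 90, the lowest without deligated replicate 2. Against lymphocytes it was 93 to 135 in every setting run. The share of members kept its direction in every setting run.

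Of 70 named calls, 48 held with the trend removed and 49 with the block. Of the 64 with a value there, 34 held on thinned sums and 33 without members that held other markers, where 27 no longer passed and 4 turned. The block also ended the calls of Apoe (adjusted p = 0.404), Lyz2 (0.0603) and Grn (0.0637), and left no call in the lysosomal list and 1 in the Fc and pattern-recognition list. Directions turned without deligated replicate 2 for Sparc (-1.03 to 2.71 over the libraries left out) and Retnla (-11.92 to 13.22, not called with all libraries). They turned with the trend removed for Dock1 (0.88), Runx1 (0.51), Zfhx3 (2.19) and Dst (0.83). Without members that held other markers they turned for Cxcl2 (-8.91), Klf4 (-0.26), Tsc22d3 (-0.12), Lilr4b (-0.65) and Ccl4 (-1.28, not called with all members). The cause was not tested. With 28 and 79 deligated cells, low genes rest on few UMIs.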

Other observations

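Outside the lists, genes that were higher in deligated members included Bloc1s1, a subunit of a complex that positions lysosomes, at 77.7 and 79.9 CPM against 21.4 and 19.9 CPM (log2 fold change 1.87, SE 0.26, adjusted p = 0.00389), and Pilra, an inhibitory receptor of myeloid cells, at 90.7 and 59.95 CPM against 22.2 and 23.5 CPM (adjusted p = 0.0161). Lgals1, a secreted galectin, stood at 130 and 312 CPM against 77.1 and 63.2 CPM (adjusted p = 0.00665), a call lost without deligated replicate 2.

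Among genes with the highest ratio of member level to the level in all other retained cells, Ms4a7, a membrane gene of macrophages, stood at 1561 and 1501 CPM against 1135 and 1214 CPM and Lilra5 at 194 and 192 CPM against 206 and 208 CPM. Klra2, a lectin-like receptor with 26.2 kb of intron, was lower, at 117 and 94.9 CPM against 276 and 290 CPM (log2 fold change -1.53, SE 0.19, adjusted p = 0.00231), and was so with the intron trend removed (-1.30, adjusted p = 0.0135). Nlrp1b, an inflammasome sensor with 71.3 kb of intron, was at 64.8 and 40.0 CPM against 198 and 191 CPM (adjusted p = 0.0015).

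Retnla, a secreted product of alternatively activated macrophages, had 739 UMIs in 1 cell of deligated replicate 2 and 1339 UMIs over 4 cells of homeostatic replicate 2, and none in the other libraries.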
